A study of Mus musculus with 30 samples.

Results

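The genes described here are 30 genes of cholesterol synthesis and of its control by SREBP2, taken by name from the 41388 genes of the deposited mouse count tables. They are Srebf2, Hmgcs1, Mvk, Pmvk, Mvd, Idi1, Fdps, Fdft1, Sqle, Lss, Cyp51, Tm7sf2, Msmo1, Nsdhl, Hsd17b7, Ebp, Sc5d, Dhcr7, Insig1, Insig2, Stard4, Acat2, Rdh11, Ggps1, Lbr, Scap, Tmem97, Mbtps1, Mbtps2 and Aacs. The rule names genes and uses no measured value, although earlier results of these data were known when the list was made, and all 30 passed the filter on low counts in every comparison. The study sequenced poly(A)-selected RNA of liver and hepatocytes from mice with altered A1cf, which encodes a protein that binds RNA and helps to edit Apob mRNA, and RNA recovered with that protein by CLIP-seq.

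The livers came from 12-month-old mice: 3 pools of A1cf-/- knockout livers stood beside 3 pools of wild-type C57BL/6NJ livers, and 4 pools labelled A1cf Tg/+ (Tg) beside 4 pools of wild-type C57BL/6J livers. Hepatocytes were isolated by perfusion at an age of 12 weeks and kept overnight on collagen, as 3 pools labelled Tg and 3 pools of wild-type C57BL/6J cells. Each pool joined RNA of 3 to 4 mice. The 2 liver comparisons were sequenced as separate studies, and the labels name neither the promoter that drives the transgene nor the exons that the knockout lacks. The 10 CLIP-seq libraries came from hepatocytes labelled Tg. Library totals ran from 17044839 to 37211328 counts for RNA and from 6151 to 10902 counts for CLIP-seq.

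A1cf itself served as the check of the labels. It held 24.4, 19.7 and 29.4 CPM in knockout livers, against 237, 207 and 197 CPM in C57BL/6NJ livers. CPM here and in all that follows are counts per 1e6 after TMM scaling within the comparison. In livers labelled Tg it held 145 to 164 CPM, against 218 to 290 CPM in C57BL/6J livers, and in hepatocytes labelled Tg 7.94 to 10.4 CPM, against 6.52 to 10.6 CPM in wild-type hepatocytes. In livers labelled Tg A1cf was called lower, with no overlap (log2 fold change -0.65 ± 0.11 (SE), edgeR's adjusted p = 0.0369). That call was lost with some single pools left out (adjusted p up to 0.107). A1cf counts were thus not raised with the Tg label, and every direction given below for these sets rests on their labels.

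Cholesterol is built from acetyl-CoA through mevalonate, isoprenoid diphosphates, squalene and lanosterol. The transcription factor SREBP2, made from Srebf2, is carried by Scap from the endoplasmic reticulum to the Golgi, where the proteases made from Mbtps1 and Mbtps2 release its active part; the Insig proteins hold Scap back when sterols are plentiful. In liver, active SREBP2 raises transcription of most enzymes of the pathway, and of Insig1, Stard4 and other targets.

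Many genes of the pathway were lower in knockout livers, nearly all of them enzymes of the pathway. Of the 30 genes, 12 fell and 0 rose in knockout against C57BL/6NJ livers at an adjusted p below 0.05 (edgeR's quasi-likelihood test with Benjamini-Hochberg adjustment over all genes tested), from 1.64-fold lower for Tm7sf2 to 3.55-fold lower for Idi1. Over all 15942 genes tested, 2.98% were called in either direction and 1.48% were called lower. By role, 3 of 9 enzymes of the early steps, 8 of 12 enzymes from squalene onward, 1 of 3 other SREBP2 targets and 0 of 6 regulators fell. The median log2 fold change was -0.69 over the 30 genes and -0.01 over all genes tested. The estimate lay below 0 for 28 of the 30 genes (51.1% of all genes), and the 3 knockout pools lay below all 3 C57BL/6NJ pools for 20 of them (12.7% of all genes). In whole liver, fewer cells of a type and less RNA per cell cannot be told apart.

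**Figure D1:**
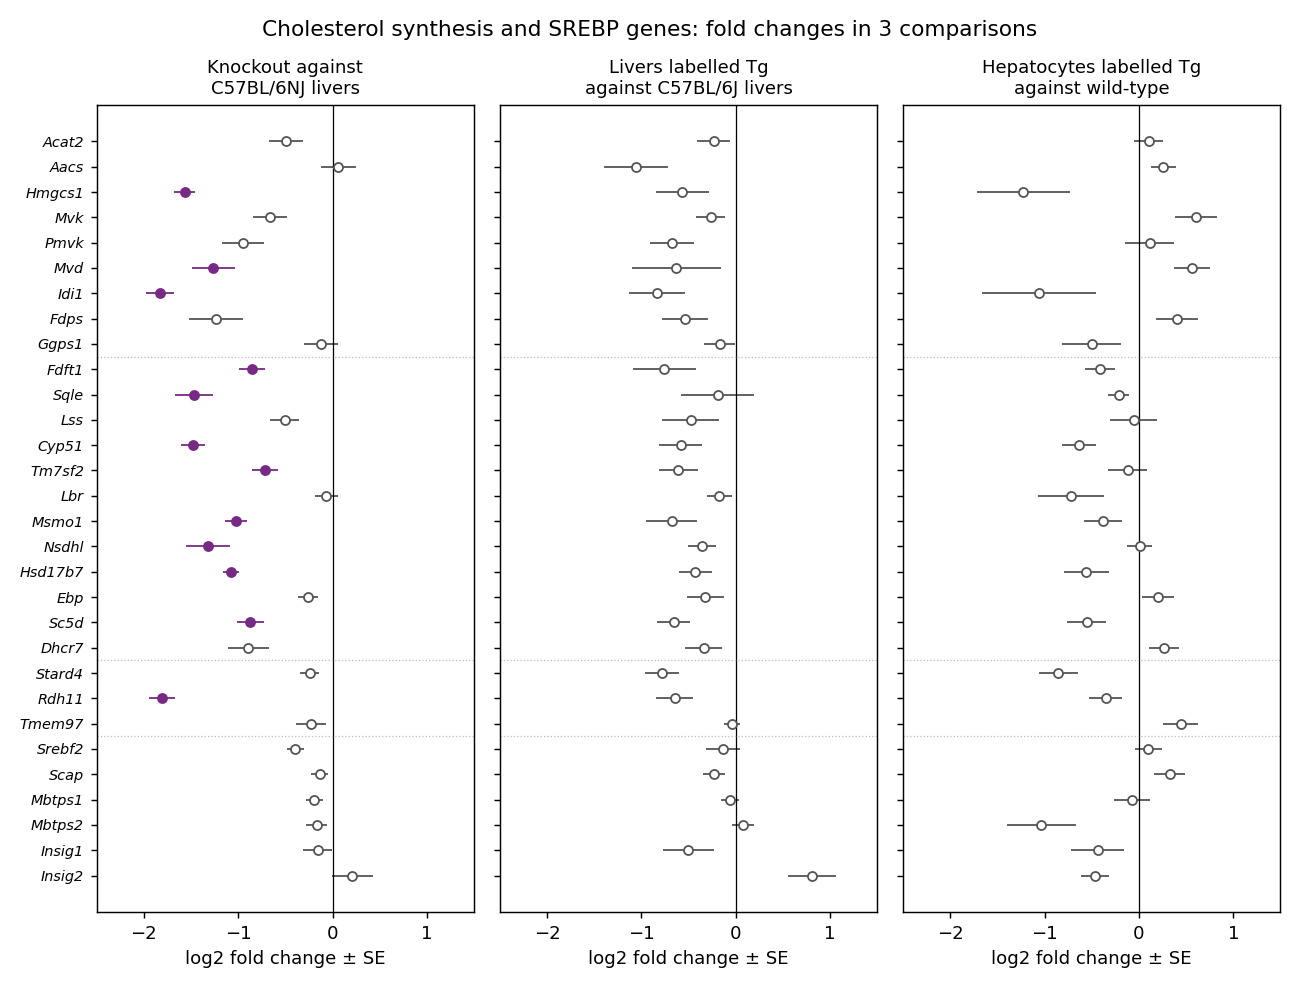
Log2 fold change ± SE (edgeR) of each of the 30 genes in knockout against C57BL/6NJ livers, in livers labelled Tg against C57BL/6J livers, and in hepatocytes labelled Tg against wild-type hepatocytes; dotted lines part early enzymes, sterol enzymes, other SREBP2 targets and regulators from top to bottom, and filled points passed an adjusted p of 0.05. The 12 filled points all stand left of 0 in the knockout panel, and the 6 regulators at its foot, all open points, run from -0.39 for Srebf2 to 0.21 for Insig2.

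Among the early enzymes, Hmgcs1, which makes HMG-CoA in the cytosol, held 87.3, 101 and 114 CPM in knockout livers, against 282, 316 and 297 CPM in C57BL/6NJ livers. The groups lay far apart, with a log2 fold change of -1.57 ± 0.11 (SE) and an adjusted p of 0.000179. Idi1, the isopentenyl diphosphate isomerase, held 10.6, 11.9 and 14.5 CPM in knockout livers, against 36.5, 44.9 and 49.8 CPM in C57BL/6NJ livers. Its log2 fold change of -1.83 ± 0.15 (adjusted p = 0.000266) was the lowest estimate among the 30 genes. Mvd, which makes isopentenyl diphosphate, held 6.38, 6.24 and 7.95 CPM in knockout livers, against 16.3, 22.2 and 11.0 CPM in C57BL/6NJ livers (log2 fold change -1.26 ± 0.23, adjusted p = 0.0209). Its groups did not overlap, but the C57BL/6NJ pools were spread widely and the call was lost with any single knockout pool, or C57BL/6NJ pool 2, left out (adjusted p 0.0551 to 0.108).

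The remaining early enzymes did not pass the test. Fdps, which makes farnesyl diphosphate, had 57.9, 48.7 and 119 CPM in knockout livers, against 173, 205 and 155 CPM in C57BL/6NJ livers (log2 fold change -1.24 ± 0.28, adjusted p = 0.0511). Knockout pool 3 stood well above the other 2 knockout pools, though still below every control. The kinases Pmvk (-0.95 ± 0.22, adjusted p = 0.0513) and Mvk (-0.66 ± 0.18, adjusted p = 0.0816) likewise had every knockout pool below every control pool. Estimates were -0.50 ± 0.18 for Acat2, the cytosolic acetoacetyl-CoA thiolase, -0.12 ± 0.18 for Ggps1, which makes geranylgeranyl diphosphate, and 0.06 ± 0.18 for Aacs, which activates acetoacetate.

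Of the enzymes that turn farnesyl diphosphate into squalene and its epoxide, Sqle, the squalene epoxidase, held 26.7, 29.3 and 39.3 CPM in knockout livers, against 61.2, 104 and 98.1 CPM in C57BL/6NJ livers. The fall of -1.47 ± 0.20 on the log2 scale (adjusted p = 0.00652) came with no overlap, although C57BL/6NJ pool 1 was clearly lower than the other 2. Fdft1, the squalene synthase, held 56.0, 53.0 and 64.6 CPM in knockout livers, against 104, 124 and 85.0 CPM in C57BL/6NJ livers (-0.85 ± 0.14, adjusted p = 0.0124). Exons of Fdft1 overlap those of Ctsb on the opposite strand over 26.8% of its counted length, and Ctsb had a log2 fold change of 0.13 ± 0.09. Lss, the lanosterol synthase that follows, had every knockout pool below every control pool but did not pass (-0.51 ± 0.15, adjusted p = 0.117).

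Past lanosterol, Cyp51, the lanosterol demethylase, held 56.6, 60.1 and 75.0 CPM in knockout livers, against 155, 194 and 185 CPM in C57BL/6NJ livers (log2 fold change -1.48 ± 0.13, adjusted p = 0.000474). The 3 proteins that remove the next methyl groups from the sterol fell as well. Msmo1, the methylsterol oxidase, held 63.3, 60.4 and 79.3 CPM in knockout livers, against 134, 151 and 128 CPM in C57BL/6NJ livers (-1.02 ± 0.12, adjusted p = 0.00242). Nsdhl, the sterol decarboxylating dehydrogenase, held 28.0, 21.3 and 46.1 CPM in knockout livers, against 79.5, 86.5 and 72.3 CPM in C57BL/6NJ livers (-1.32 ± 0.23, adjusted p = 0.0181). Hsd17b7, the ketoreductase of that step, held 39.5, 41.8 and 38.3 CPM in knockout livers, against 79.9, 83.2 and 89.3 CPM in C57BL/6NJ livers (-1.08 ± 0.08, adjusted p = 0.000257). Hsd17b7 had tight groups, while knockout pool 3 stood above the others for Msmo1 and Nsdhl.

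Sc5d, the lathosterol desaturase, held 217, 166 and 247 CPM in knockout livers, against 416, 384 and 349 CPM in C57BL/6NJ livers (-0.87 ± 0.14, adjusted p = 0.0133). Tm7sf2, a sterol reductase, held 92.0, 84.2 and 116 CPM in knockout livers, against 165, 177 and 137 CPM in C57BL/6NJ livers (-0.71 ± 0.14, adjusted p = 0.0269). Its exons overlap those of Vps51 on the same strand over 15.3% of its counted length, and Vps51 had an estimate of -0.23 ± 0.14. Lbr, the nuclear envelope protein that carries the same reductase activity as Tm7sf2, had 10.3 to 12.6 CPM in knockout livers and 11.5 to 13.6 CPM in C57BL/6NJ livers (-0.07 ± 0.12, approximate 95% interval -0.31 to 0.17). Of the remaining enzymes, Dhcr7, the reductase of the last step, had an estimate of -0.89 ± 0.22 (adjusted p = 0.0627) and Ebp, the sterol isomerase, of -0.26 ± 0.10 (adjusted p = 0.218). Both had knockout pools that lay below every control pool.

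Rdh11, a retinol dehydrogenase that is also a sterol-regulated gene, held 9.77, 11.0 and 14.5 CPM in knockout livers, against 40.2, 43.0 and 40.3 CPM in C57BL/6NJ livers. It was 3.51-fold lower (log2 fold change -1.81 ± 0.14, adjusted p = 0.000246), nearly as far as Idi1. The other SREBP2 targets did not pass. Stard4, a cytosolic sterol carrier, had 95.4 to 108 CPM in knockout livers and 106 to 134 CPM in C57BL/6NJ livers (-0.24 ± 0.11, adjusted p = 0.256). Tmem97, a sterol-regulated membrane protein, had an estimate of -0.22 ± 0.16 with overlapping groups.

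None of the 6 regulators passed in this fit. Srebf2 had 91.5, 89.9 and 101 CPM in knockout livers, against 116, 134 and 121 CPM in C57BL/6NJ livers (-0.39 ± 0.09, adjusted p = 0.0525), with every knockout pool lower but the threshold missed. It passed by DESeq2 (adjusted p = 0.00988) and in edgeR with no filter on low counts (0.0206), with a length offset (0.0477) and without C57BL/6NJ pool 1 (0.0405). Insig1, itself a classical SREBP2 target, had 352, 262 and 357 CPM in knockout livers, against 427, 358 and 298 CPM in C57BL/6NJ livers. Its groups overlapped, and its log2 fold change of -0.16 had an approximate 95% interval of -0.46 to 0.15, whose lower end lies above the estimates of all 12 genes called lower. Insig2, which is less sterol-dependent, had an estimate of 0.21 ± 0.22, Scap of -0.14 ± 0.09, Mbtps1 of -0.19 ± 0.09 and Mbtps2 of -0.17 ± 0.11.

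**Figure D2:**
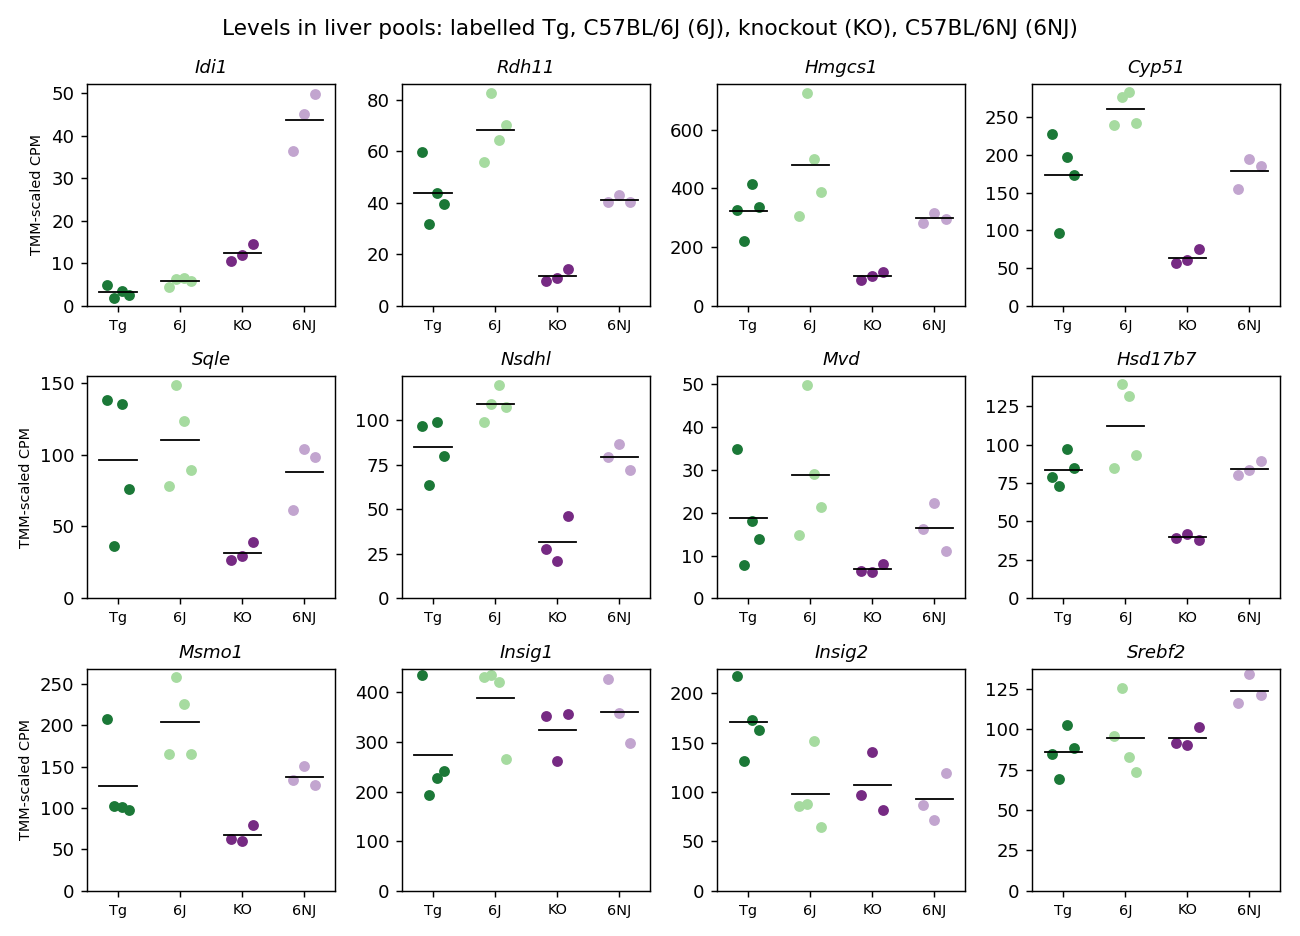
TMM-scaled CPM of 12 of the genes in each liver pool labelled Tg, C57BL/6J (6J), knockout (KO) or C57BL/6NJ (6NJ); points are pools, bars are group means, and the axis of each panel starts at 0. The 9 genes from Idi1 to Msmo1 have KO pools that all lie below the 6NJ pools, Insig1 and Insig2 have overlapping KO and 6NJ pools, and pool 1 labelled Tg stands apart for Msmo1 and Insig1.

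The calls depended on the pools and on the fit. Hmgcs1, Rdh11, Hsd17b7, Idi1, Cyp51, Msmo1 and Sqle passed the threshold with each of the 6 liver pools left out in turn, with adjusted p at or below 0.0383. Tm7sf2, Nsdhl and Sc5d missed it without knockout pool 1 or C57BL/6NJ pool 2, Tm7sf2 also without knockout pool 2, and Fdft1 without knockout pool 1 (adjusted p 0.0532 to 0.141). The number of the 30 genes called lower was 7 without knockout pool 1, with 0.837% of all genes called, and 5 when all 6 RNA groups shared one estimate of the spread (Idi1, Cyp51, Nsdhl, Hsd17b7 and Rdh11), a fit that called 0.345% of all genes. It was 17 by DESeq2 (5.66% of all genes called), which also called Srebf2, Mvk, Pmvk, Lss and Dhcr7, and 19 with no filter on low counts (4.09% called).

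All 3 knockout pools were low for the pathway as a whole. The median log2 difference of the 30 genes from the mean of the C57BL/6NJ pools was -0.73, -0.93 and -0.39 in the knockout pools and -0.02, 0.09 and -0.09 in the C57BL/6NJ pools. Summed over the 30 genes, the knockout pools held 2203, 1949 and 2557 CPM and the C57BL/6NJ pools 3514, 3693 and 3264 CPM. Knockout pool 2 was lowest and pool 3 highest among the knockout pools on both measures, and neither measure overlapped with the controls.

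Several lists of cell type and tissue markers also differed between the same pools. Of 12 skeletal muscle genes, 10 were tested and all 10 were higher in knockout livers; the list summed to 122, 21.9 and 101 CPM in knockout livers, against 1.28, 0.781 and 1.18 CPM in C57BL/6NJ livers, with Tnnc2 at 0 in both groups. The 4 adipocyte genes summed to 119, 73.1 and 170 CPM in knockout livers, against 2.21, 2.13 and 3.30 CPM in C57BL/6NJ livers, and the 1 of them that was tested, Cfd, was higher. Of 6 hepatocyte genes 1 was lower and 0 were higher, and the 1 tested gene of 4 on the exocrine pancreas list was lower, with sums of 8.43 to 10.5 CPM in knockout livers and 13.6 to 17.7 CPM in C57BL/6NJ livers. Of that list Ctrb1, Pnlip and Cpa1 were at 0 in all C57BL/6NJ pools, and Pnlip was at 0 in all knockout pools. On the Kupffer cell, endothelial, stellate cell, cholangiocyte, T and NK cell, B cell, neutrophil and red cell lists 0 genes were called, although the sums did not overlap for the endothelial list (492 to 535 CPM in knockout livers, 445 to 471 CPM in C57BL/6NJ livers), the stellate cell list (457 to 518 CPM in knockout livers, 367 to 401 CPM in C57BL/6NJ livers) and the cholangiocyte list (29.0 to 34.0 CPM in knockout livers, 34.9 to 74.7 CPM in C57BL/6NJ livers). The part of these markers in the result was not tested.

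**Figure D3:**
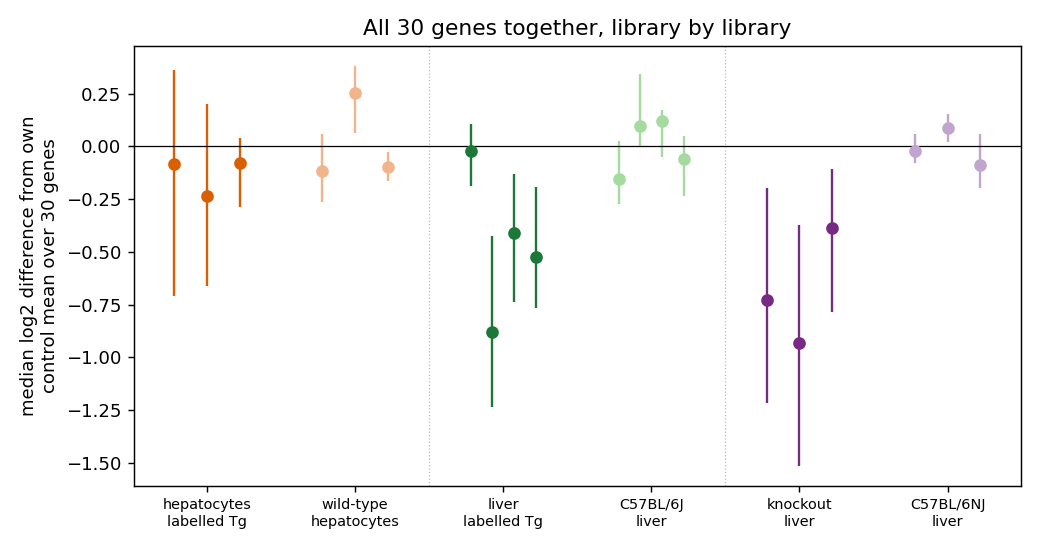
Median over the 30 genes of the log2 difference from the mean of the controls in the same comparison, one point per pool, with bars from the lower to the upper quartile over genes. The knockout pools stand at -0.73, -0.93 and -0.39, the pools of livers labelled Tg range from -0.88 to -0.02, and the hepatocyte pools labelled Tg lie within the range of their controls or close below it.

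Promoters were read to see whether the genes that fell share letters near their start. RefSeq promoter windows (GRCm38.p6, 250 bases before to 50 bases after an annotated start) were found for 26 of the 30 genes, 10 of them among the 12 genes lower in knockout livers. For Fdps, Fdft1, Sqle and Stard4 none was used here. In every window only the 250 bases before the start were searched. All motifs were searched on both strands. TCACNCCAC, a run of letters as in sterol response elements, occurred in Hmgcs1 alone, against 1.05% of all 32851 promoter windows. The shorter CACCCCAC, which overlaps it, occurred in Hmgcs1 and Acat2, against 2.58% of all windows. CCAAT, the box bound by NF-Y, which acts beside SREBPs at known sterol promoters, occurred in all 10 of the genes that fell and were matched and in 11 of the other 16, against 33.8% of windows. GGGCGG, the core of the Sp1 box, occurred in 9 of those 10 genes and in 12 of the other 16, against 32.7% of windows. Some genes have several windows, so shares of genes and shares of windows are not counted alike, and a match is a run of letters and no evidence of binding. Nor is the lack of a match evidence that a gene lacks a sterol element, since other forms of the element were not searched. Rdh11, which fell further than Hmgcs1 and Cyp51, is not printed: 1 of its windows held 0 matches to CCAAT or TCACNCCAC, and another held 1 CCAAT. The 250 bases before the start are given below for 3 of the genes with the largest falls, 5′ to 3′ on the strand of the gene. Matches to CCAAT on either strand and to TCACNCCAC are in capitals.
Hmgcs1: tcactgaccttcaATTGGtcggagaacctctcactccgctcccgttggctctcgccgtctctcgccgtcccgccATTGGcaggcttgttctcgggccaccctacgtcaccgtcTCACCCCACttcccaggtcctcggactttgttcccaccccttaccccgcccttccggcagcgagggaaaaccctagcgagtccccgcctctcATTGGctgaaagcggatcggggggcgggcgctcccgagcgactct
Idi1: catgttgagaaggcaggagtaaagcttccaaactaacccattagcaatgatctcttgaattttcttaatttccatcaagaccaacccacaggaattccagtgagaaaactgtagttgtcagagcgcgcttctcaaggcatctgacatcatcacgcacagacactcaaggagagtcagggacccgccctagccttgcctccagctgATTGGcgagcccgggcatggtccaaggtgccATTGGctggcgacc
Cyp51: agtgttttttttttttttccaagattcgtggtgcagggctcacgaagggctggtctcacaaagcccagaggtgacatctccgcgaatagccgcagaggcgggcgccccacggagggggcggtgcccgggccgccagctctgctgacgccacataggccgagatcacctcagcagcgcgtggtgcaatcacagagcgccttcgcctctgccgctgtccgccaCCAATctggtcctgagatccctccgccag

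The Hmgcs1 window lies at chr13:119690101-119690350 on the plus strand, the Idi1 window at chr13:8885356-8885605 on the plus strand and the Cyp51 window at chr5:4104698-4104947 on the minus strand. The Hmgcs1 window carries the TCACNCCAC match between a pair of CCAAT boxes upstream and 1 near the start, while the Idi1 and Cyp51 windows carry CCAAT boxes near the start and no TCACNCCAC.

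In livers labelled Tg, estimates leaned the same way without any gene passing the test. Of 14110 genes tested against C57BL/6J livers 1.33% were called at an adjusted p below 0.05, and 0 of the 30 were among them by edgeR; DESeq2, which called 8.8% of all genes, called 4 lower (Aacs, Sc5d, Rdh11 and Stard4) and 1 higher (Insig2). The estimate was below 0 for 28 of the 30 genes (50.6% of all genes), with a median of -0.45. At an unadjusted p below 0.05, 12 were lower (8.55% of all genes) and 1, Insig2, was higher (11.7%). The pools labelled Tg lay below all C57BL/6J pools for 4 genes (5.29% of all genes), namely Stard4, Sc5d, Cyp51 and Nsdhl, and above all of them for 0 (6.41%).

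Stard4 had the smallest p, with 112, 60.9, 90.9 and 101 CPM in livers labelled Tg, against 184, 142, 141 and 160 CPM in C57BL/6J livers (log2 fold change -0.78 ± 0.18, adjusted p = 0.0702). Sc5d held 544, 361, 324 and 326 CPM in livers labelled Tg, against 569, 658, 600 and 625 CPM in C57BL/6J livers (-0.66 ± 0.17, adjusted p = 0.0902). Rdh11 held 59.6, 31.6, 43.8 and 39.5 CPM in livers labelled Tg, against 56.0, 82.6, 64.4 and 70.2 CPM in C57BL/6J livers (-0.65 ± 0.20, adjusted p = 0.115). For each of these 3 genes pool 1 labelled Tg was the highest of its group, and for Rdh11 it reached into the control range.

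Insig2 went the other way, with 217, 131, 172 and 162 CPM in livers labelled Tg, against 85.6, 88.1, 152 and 65.0 CPM in C57BL/6J livers (0.81 ± 0.26, adjusted p = 0.129). Only C57BL/6J pool 3 reached into the range of the pools labelled Tg. Aacs held 174, 96.0, 100.1 and 110.0 CPM in livers labelled Tg, against 141, 178, 261 and 419 CPM in C57BL/6J livers (-1.06 ± 0.34, adjusted p = 0.130). The C57BL/6J pools were spread more widely than the groups differed, and pool 1 labelled Tg lay above the lowest of them. Tm7sf2 (-0.61 ± 0.21), Pmvk (-0.67 ± 0.23) and Idi1 (-0.83 ± 0.29) had adjusted p of 0.153, 0.156 and 0.162.

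The other estimates in livers labelled Tg ran from -0.76 ± 0.33 for Fdft1 to 0.07 ± 0.12 for Mbtps2. Among the genes that fell in knockout livers, Hmgcs1 had -0.57 ± 0.28, Cyp51 -0.59 ± 0.23, Msmo1 -0.68 ± 0.27, Mvd -0.63 ± 0.47 and Sqle -0.19 ± 0.39. Srebf2 had -0.13 ± 0.18, with 69.0 to 103 CPM in livers labelled Tg and 73.5 to 125 CPM in C57BL/6J livers, and Insig1 had -0.50 ± 0.27.

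The count of calls depended on the fit and on pool 1 labelled Tg, the only pool whose removal changed the count among the 30 by edgeR. In that pool the median log2 difference over the 30 genes from the C57BL/6J mean was -0.02, against -0.88, -0.41 and -0.53 in pools 2 to 4 labelled Tg and -0.15 to 0.12 in the C57BL/6J pools. Without pool 1 labelled Tg, in a fit that called 3.92% of all genes, 10 of the 30 genes were called lower: Pmvk, Fdps, Fdft1, Lss, Tm7sf2, Msmo1, Ebp, Sc5d, Stard4 and Rdh11. Beside this, 6 hepatocyte genes summed to 58030 to 71490 CPM in livers labelled Tg and to 93670 to 107500 CPM in C57BL/6J livers, though 0 of the 6 passed, and the skeletal muscle list reached 2310 CPM in C57BL/6J pool 2, against at most 3.44 CPM in any other pool of this comparison. Sums did not overlap either for the cholangiocyte list (50.5 to 117 CPM in livers labelled Tg, 40.8 to 50.2 CPM in C57BL/6J livers), the neutrophil list (3.48 to 14.6 CPM labelled Tg, 1.62 to 2.94 CPM in C57BL/6J) and the exocrine pancreas list (17.4 to 33.5 CPM labelled Tg, 5.53 to 15.7 CPM in C57BL/6J). On these 3 lists 0 genes were called, with 5 of 5, 2 of 3 and 1 of 4 genes tested, in that order. Of 8 stellate cell genes, 1 was called higher. Their part in the values was not tested; without C57BL/6J pool 2 the median of the 30 genes was -0.32 and 0 were called.

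The effect of the Tg label was set against that of the knockout in one fit over the 4 liver groups, in which 1.02% of 16295 genes were called and 0 of the 30 genes passed. At an unadjusted p below 0.05 the difference was above 0, so that the knockout estimate was the lower, for 7 genes (9.33% of all genes): Rdh11, Nsdhl, Hsd17b7, Cyp51, Hmgcs1, Idi1 and Sqle. It was below 0 for 2 genes (7.6% of all genes), Aacs (-1.14 ± 0.47, adjusted p = 0.232) and Stard4 (-0.55 ± 0.24, 0.270). Rdh11 came closest, with a difference of 1.15 ± 0.27 on the log2 scale and an adjusted p of 0.0573, and it was called by DESeq2 (0.00489; 4.88% of all genes), with no filter on low counts (0.0433) and without pool 1 or 2 labelled Tg or C57BL/6J pool 2 (0.0241 to 0.0453). Nsdhl (0.95 ± 0.30, adjusted p = 0.137), Hsd17b7 (0.63 ± 0.22, 0.168) and Cyp51 (0.88 ± 0.31, 0.170) followed; Nsdhl passed without knockout pool 3 (0.0454) and Cyp51 without pool 2 labelled Tg (0.0178). That genes passed in knockout livers and not in livers labelled Tg is therefore not shown to be a difference between them.

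In plated hepatocytes the 30 genes went both ways. Of 13770 genes tested in hepatocytes labelled Tg against wild-type hepatocytes 3.15% were called, and 0 of the 30 were among them by edgeR, while 10 passed an unadjusted p below 0.05 and DESeq2, which called 14.6% of all genes, called Cyp51 and Stard4 lower. At an unadjusted p below 0.05, 7 were lower (15.3% of all genes) and 3 were higher (13.5%). The estimate was below 0 for 18 of the 30 (51.1% of all genes), the median was -0.17, and the pools labelled Tg lay below all wild-type pools for 8 genes and above them for 1 (16.5% of all genes in each direction).

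Stard4 again had the smallest p, with 17.3, 17.9 and 23.5 CPM in hepatocytes labelled Tg, against 29.2, 42.5 and 34.3 CPM in wild-type hepatocytes (-0.85 ± 0.21, adjusted p = 0.0697). Cyp51 held 204, 219 and 269 CPM in hepatocytes labelled Tg, against 324, 436 and 315 CPM in wild-type hepatocytes (-0.64 ± 0.18, adjusted p = 0.0933). Insig2 held 108, 113 and 87.2 CPM in hepatocytes labelled Tg, against 158, 136 and 132 CPM in wild-type hepatocytes (-0.47 ± 0.15, adjusted p = 0.112). None of these 3 genes had overlapping groups, and Insig2 lay on the other side of its controls than in livers labelled Tg.

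Mvd was the gene with all pools labelled Tg above the controls, at 37.1, 32.7 and 26.2 CPM in hepatocytes labelled Tg, against 19.6, 25.3 and 20.1 CPM in wild-type hepatocytes (0.56 ± 0.19, adjusted p = 0.125). Mvk held 68.8, 55.9 and 39.2 CPM in hepatocytes labelled Tg, against 40.5, 32.6 and 34.8 CPM in wild-type hepatocytes (0.60 ± 0.22, adjusted p = 0.144). Mbtps2 held 9.33, 14.0 and 23.2 CPM in hepatocytes labelled Tg, against 23.2, 40.9 and 31.2 CPM in wild-type hepatocytes (-1.04 ± 0.37, adjusted p = 0.133). Exons of Mbtps2 overlap those of Yy2 on the same strand over 28.4% of its counted length. Sc5d had -0.55 ± 0.21 (adjusted p = 0.148), Fdft1 -0.41 ± 0.16 (0.155), Hmgcs1 -1.23 ± 0.49 (0.163) and Tmem97 0.44 ± 0.18 (0.169).

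Hmgcs1 shows how far single pools reached: it held 91.0, 103 and 231 CPM in hepatocytes labelled Tg, against 173, 520 and 300 CPM in wild-type hepatocytes. Pool 3 labelled Tg lay within the control range, and wild-type pool 2 stood far above the other 2. Without pool 3 labelled Tg, 8 of the 30 genes were called lower and 6 higher, in a fit that called 35% of all genes; with each other pool left out, 0 were called. The remaining estimates ran from -1.06 ± 0.61 for Idi1, which was low in these cells at 0.859 to 4.98 CPM, to 0.40 ± 0.22 for Fdps. Srebf2 had 0.10 ± 0.14 and Insig1 -0.44 ± 0.28.

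Beside these values, the 6 hepatocyte genes summed to 34610 to 49360 CPM in hepatocytes labelled Tg and to 35280 to 42850 CPM in wild-type hepatocytes, with none of them at 0. The skeletal muscle list summed to 17.4 to 50.9 CPM in hepatocytes labelled Tg and 4.90 to 12.2 CPM in wild-type hepatocytes, with Tnnt3, Tnnc2, Myh4, Myh1 and Pvalb at 0 in both, and the adipocyte list to 2.40 to 5.89 CPM in hepatocytes labelled Tg and 0.0272 to 0.164 CPM in wild-type hepatocytes, with Adipoq at 0 in both. The T and NK cell list summed to 457 to 693 CPM in hepatocytes labelled Tg and 195 to 265 CPM in wild-type hepatocytes, with Cd3e at 0 in the wild-type cells. Only 1 of its 4 genes passed the filter on low counts, and that gene was higher, as was the 1 tested adipocyte gene. In C57BL/6J livers the T and NK cell list summed to 3.15 to 8.59 CPM. With 1 gene tested, the sum of that list in plated cells is no measure of these cell types. Sums did not overlap either for the Kupffer cell list (317 to 613 CPM in hepatocytes labelled Tg, 194 to 284 CPM in wild-type hepatocytes), with 0 of 10 tested genes called. The cholangiocyte list summed to 438 to 667 CPM labelled Tg and 697 to 1175 CPM in wild-type cells, with 0 of 5 tested genes called. Its median log2 fold change was 1.31, so the sum and most of its genes went opposite ways. The exocrine pancreas list summed to 5.24 to 6.40 CPM labelled Tg and 4.11 to 4.49 CPM in wild-type cells, and its 1 tested gene of 4 was not called. The B cell list summed to 0.444 to 1.49 CPM labelled Tg and 0.243 to 0.435 CPM in wild-type cells. None of its 4 genes passed the filter on low counts, so none was tested. Their part in the values was not tested.

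Whether the effect of the Tg label differed between liver and hepatocytes was tested in one fit over those 4 groups, with 0.842% of 15565 genes called and 0 of the 30. At an unadjusted p below 0.05, 10 genes had the lower estimate in liver (13.8% of all genes), led by Mvk (difference -1.07 ± 0.31, adjusted p = 0.0929) and Aacs (-1.51 ± 0.45, 0.0983), both of which DESeq2 called, with 6.52% of all genes. Scap (-0.75 ± 0.24, 0.115) and Fdps (-1.15 ± 0.38, 0.121) came next, and these 4 genes passed without hepatocyte pool 3 labelled Tg (0.00979 to 0.0259), in a fit that called 22.4% of all genes. The estimate was the higher in liver for 2 genes (9.03% of all genes): Insig2, with estimates on opposite sides of 0, had a difference of 1.08 ± 0.36 and an adjusted p of 0.123, and Mbtps2 had 0.94 ± 0.32 and 0.126. Age, culture and sequencing run differ between these livers and hepatocytes and cannot be told apart from the tissue.

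Wild-type hepatocytes and C57BL/6J livers differed widely, in the pathway as elsewhere: 72% of 14824 genes were called. Of the 30 genes, 13 were lower in wild-type hepatocytes (36.4% of all genes) and 3 were higher (35.6%), a share of the 30 near the background for lower genes and below it, at 10% of the 30, for higher genes. Stard4 had a log2 difference of -2.44 ± 0.17, with 29.2 to 42.5 CPM in wild-type hepatocytes and 141 to 184 CPM in C57BL/6J livers. Ebp had -2.34 ± 0.15, with 64.3 to 76.2 CPM in wild-type hepatocytes and 255 to 323 CPM in C57BL/6J livers. Insig1 (-1.82 ± 0.26), Tm7sf2 and Sc5d (both -1.59), Aacs (-1.58 ± 0.34), Idi1 (-1.22 ± 0.36) and Hsd17b7 (-1.21 ± 0.23) followed. The 3 higher genes were Srebf2 (1.07 ± 0.19, with 222 to 259 CPM in wild-type hepatocytes and 73.5 to 125 CPM in C57BL/6J livers), Mbtps2 (1.01 ± 0.19) and Lbr (0.79 ± 0.18). Levels on either side were each scaled within their own comparison, and the differences come from a joint fit.

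Levels of different genes were compared per length of counted exon. In C57BL/6NJ livers the highest means of TMM-scaled RPKM were 165 for Sc5d, 143 for Fdps and 134 for Insig1, and the lowest were 1.19 for Mbtps2 and 1.87 for Ggps1. Knockout livers had 120 for Insig1, 90.0 for Sc5d and 76.5 for Ebp at the top. C57BL/6J livers were led by Sc5d at 263, Hmgcs1 at 148 and Insig1 at 144, and wild-type hepatocytes by Fdps at 123, Sc5d at 107 and Hmgcs1 at 102. Idi1 stood out between the control livers, with a mean of 1.64 RPKM in C57BL/6J livers, 12.5 in C57BL/6NJ livers and 0.862 in wild-type hepatocytes; strain and sequencing study cannot be told apart there.

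**Figure D4:**
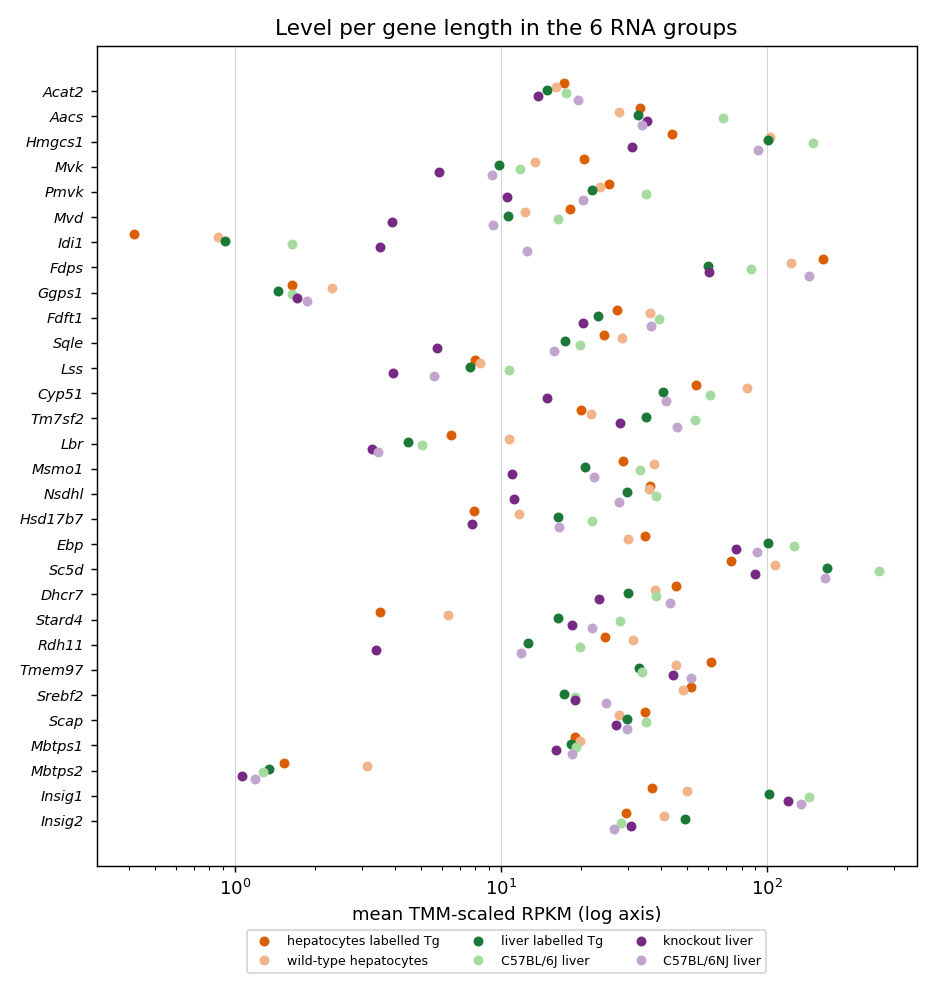
Mean TMM-scaled RPKM of the 30 genes in the 6 RNA groups, on a log axis, with 1 point per group and each group scaled within its own comparison. Idi1 has its highest point in C57BL/6NJ livers at 12.5 RPKM and its lowest in hepatocytes labelled Tg at 0.418 RPKM, and knockout livers have the lowest point for 9 of the 12 genes that fell there.

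CLIP-seq read hardly any RNA of these genes. Over the 10 libraries, 11 of 80854 counts fell on the 30 genes, a share of 0.0136% (95% Wilson interval 0.0076% to 0.0244%), while the same genes took 0.280% to 0.294% of the RNA-seq counts of hepatocytes labelled Tg. The counts were 5 for Mbtps1, in 2 libraries, 2 for Scap and 1 each for Idi1, Lss, Stard4 and Aacs. The other 24 genes were at 0, for which the 95% Wilson interval allows each a share of up to 0.00475% over the pooled libraries. No gene was seen in 5 or more libraries. At this depth binding of single genes was not detectable either way, and the intervals and limits cover counting error only.

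A wider list of 53 genes of sterol transport, bile acid synthesis, ketone bodies and SREBP turnover was read beside the 30, of which 52 were in the tables. In knockout livers 5 of 51 tested were lower, a share of 9.8% against 1.48% of all genes, and 0 were higher. Among them were the bile acid hydroxylases Cyp39a1 (-1.48 ± 0.21, edgeR's adjusted p = 0.00698) and Cyp7b1 (-1.21 ± 0.27, adjusted p = 0.0471), and the sterol transporter Gramd1c (-0.73 ± 0.10, adjusted p = 0.00606).

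In livers labelled Tg 1 of 52 genes of that list was called and in hepatocytes labelled Tg 1 of 51, the same gene each time, beside 1.33% and 3.15% of all genes called. Gramd1b, which moves cholesterol from the plasma membrane to the endoplasmic reticulum, rose with the Tg label in both settings. It held 12.7, 13.6, 30.2 and 16.7 CPM in livers labelled Tg, against 6.17, 7.79, 4.88 and 5.25 CPM in C57BL/6J livers (1.60 ± 0.29, adjusted p = 0.0393). It held 27.8, 24.9 and 21.9 CPM in hepatocytes labelled Tg, against 6.37, 5.28 and 8.34 CPM in wild-type hepatocytes (1.90 ± 0.22, adjusted p = 0.0148). The groups did not overlap in either comparison, and in knockout livers it held 3.79 to 6.28 CPM, against 3.64 to 5.15 CPM in C57BL/6NJ livers.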

How the data were processed

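RNA-seq of 20 libraries and CLIP-seq of 10 were analysed from tables with a raw count, a CPM and an RPKM for each gene, as deposited by the authors. Per the submitters' processing notes, the tools named are bcl2fastq, STAR 2.0.4b and featureCounts 1.45 of Subread, with GRCm38; the annotation release, the strand setting and the removal of duplicates are not given in the sources used here. The CPM deposited by the authors equal counts over the library total, to within 4.9e-10, and the RPKM deposited by the authors divide these by gene length, to within 1.6e-10; only the counts were tested. Names were matched to 40254 of 41388 identifiers.

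Each comparison was fitted on its own libraries: filterByExpr (minimum count 10, minimum total 15), TMM scaling and the two-sided quasi-likelihood F-test of edgeR 4.0.16 (limma 3.58.1, R 4.3.3), with Benjamini-Hochberg adjustment over all genes tested and 0.05 as threshold. Differences between effects were contrasts of 4 group means. DESeq2 1.42.0, other scalings, filters and fits, a length offset and leaving out each library were alternatives. Levels are TMM-scaled CPM or RPKM. The SE of a log2 fold change is its size over the square root of F, and approximate 95% intervals are the estimate ± 1.96 SE. With few pools such intervals are narrower than the F-test would give. P-values measure the spread between pools, and whether mice are shared between pools is not stated in the labels. No label pairs pools of equal replicate number, and the main fits left them unpaired. The correlations of their deviations ran from -0.506 for hepatocyte pools 2 to 0.686 for hepatocyte pools 1. Deviations from a mean of few pools depend on each other, so these values do not settle whether pools were paired. The members and lists were chosen with earlier results of these data known. Values per library are given for genes past the threshold, or the 8 with the smallest p per comparison in full or as a fold change; some genes of the wider list are not reported here. The fits were checked on simulated counts.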

Additional observations from a re-analysis of the deposited data

Results flagged for a closer look

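Single pools stood far from the rest of their group for 4 levels, among 62 groups of 4 pools examined, where chance gives about 1 in 20. In liver pool 1 labelled Tg, Tm7sf2 held 185.4 CPM, against 95.8 to 110.4 CPM in the other 3 pools labelled Tg. Msmo1 held 207.7 CPM in the same pool, against 98.0 to 102.1 CPM, and Sc5d held 543.9 CPM, against 324 to 361 CPM. In C57BL/6J liver pool 4, Insig1 was low at 266.0 CPM, against 422 to 435 CPM in the other 3 C57BL/6J pools.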

How the results depend on the processing

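Over the alternatives run, the 12 genes lower in knockout livers kept a log2 fold change below 0, and 0 of the 30 rose there. That comparison gave 903 genes called by DESeq2, 1079 genes and 19 of the 30 lower with no filter on low counts, and 55 genes and 5 of the 30 lower with all 6 RNA groups in one fit; leaving out 1 pool gave 137 to 645 genes and 7 to 14 of the 30. With replicate number as a block, which no label ties to shared mice and whose numbers correlated above 0.1 in 1 of 10 pairs, 15 of the 30 were lower in knockout livers; the block left 21 genes called in hepatocytes labelled Tg, 44 in livers labelled Tg, 21 for the difference between liver and hepatocytes and 66 for that between Tg label and knockout, with 0 of the 30 in each. In livers labelled Tg, DESeq2 called 1242 genes (4 of the 30 lower, 1 higher) and the fit over all groups 932 (4 lower); leaving out 1 pool gave 27 to 561 genes and 0 to 10 of the 30 lower. In hepatocytes labelled Tg, DESeq2 called 2017 genes (2 lower), no filter 669 and the fit over all groups 4472 (4 lower, 3 higher), and leaving out 1 pool gave 0 to 4934 genes with 0 to 8 lower and 0 to 6 higher, the most without pool 3 labelled Tg and the fewest genes without wild-type pool 3. The difference between liver and hepatocytes had 1015 genes by DESeq2 (2 lower) and 86 with no filter. Leaving out 1 pool gave 5 to 3545 genes, with 0 to 6 lower and 0 to 1 higher. The most genes and the most lower came without hepatocyte pool 3 labelled Tg. That fit and the one without C57BL/6J liver pool 3 each had 1 higher. The difference between Tg label and knockout had 796 genes by DESeq2 (1 higher), 1 of the 30 higher with no filter, and with 1 pool left out 24 to 449 genes and 0 to 2 higher. The cause of these shifts was not tested. Other scalings, the mean filter and the length offset kept the counts of called genes for which they were run within 1.5 times.

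The changes of sign were among estimates that passed in none of these fits. In hepatocytes labelled Tg they were Pmvk (-0.072 with a length offset; -0.060 to 0.49 over left-out pools), Lss (0.11 with all groups, 0.0083 with the block, 0.45 with a length offset; -0.21 to 0.33), Tm7sf2 (0.041 with all groups; -0.32 to 0.055), Nsdhl (-0.0075 with a mean filter, -0.081 with a length offset; -0.049 to 0.14), Acat2 (-0.026 with a length offset), Mbtps1 (0.092 with all groups; -0.16 to 0.10) and A1cf (-0.17 to 0.14 over left-out pools). In livers labelled Tg, left-out pools gave -0.24 to 0.028 for Srebf2, -0.43 to 0.079 for Sqle and -0.0055 to 0.12 for Mbtps2. In knockout livers they gave -0.043 to 0.43 for Insig2, -0.13 to 0.016 for Lbr and -0.085 to 0.24 for Aacs. Depth limits the CLIP-seq values, with 80854 counts over all libraries.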
